A study of Mus musculus with 4 samples.

Results

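The genes described here are 38 genes of blood and lymphatic endothelium, the cells that line vessels. They were taken by name from a list of endothelial genes and with no threshold on a measured value, and they make up 38 of the 29924 gene names on the array, with 52 of its 39429 probes. Ureters of newborn (P0) NMRI mice were explanted and cultured for 8 d with DMSO, the solvent, or with 2 µM purmorphamine, a small molecule that activates Smoothened and thereby hedgehog signaling. Control ureters were labelled *Pparg (fl/?)* and carried no cre, so they held at least 1 floxed *Pparg* allele. *Pparg-cKO* ureters were labelled *Pax2-cre/+; Pparg (fl/fl)*. In them *Pax2-cre*, which is active in the ureteric epithelium, deletes part of the gene for the nuclear receptor PPARG. Ureters were pooled by sex, and the number of ureters in a pool was not given in the sources used here. There were 4 groups (control with DMSO, control with purmorphamine, *Pparg-cKO* with DMSO and *Pparg-cKO* with purmorphamine) with 2 pools each, of which replicate 1 was male and replicate 2 female. The comparisons asked how endothelial transcripts differed between the genotypes and whether the hedgehog agonist altered them.

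Endothelial cells are held together by junctional proteins such as VE-cadherin (*Cdh5*) and claudin 5 (*Cldn5*), and their growth is directed by VEGF acting on *Kdr* and by angiopoietins acting on *Tek*. *Flt1* binds VEGF with high affinity and limits how much reaches *Kdr*. ETS and SOXF transcription factors (*Erg*, *Fli1*, *Sox7*, *Sox17*, *Sox18*) keep the cells endothelial, arterial cells add *Efnb2*, *Gja4* and *Gja5*, and lymphatic cells add *Prox1*, *Lyve1* and the VEGFC receptor *Flt4*. The ureter receives its vessels through the loose connective tissue around its epithelium and muscle. A cultured explant has no blood flow.

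Each of the 4 arrays carried the purmorphamine and the DMSO pool of 1 genotype and 1 sex. In replicate 1 the DMSO pool was labelled with AlexaFluor555 and in replicate 2 with AlexaFluor647, so that among pools of a given treatment sex, dye and replicate number cannot be told apart. Between 66.3% and 70.5% of spots were well above background in each channel. Of the members, 36 were well above background in all 8 pools, including the defining markers *Pecam1*, *Cdh5*, *Kdr* and *Emcn*, while *Erg* was so in 7 pools and *Flt4* in 4. All 38 passed the filter on dim probes. The hedgehog target *Ptch1* rose with purmorphamine by 1.00 on the log2 scale in control (adjusted p = 0.0462) and by 1.62 in *Pparg-cKO* ureters (adjusted p = 0.0161). The probe for *Pparg* gave log2 levels of 14.79 and 15.31 in the control and 15.55 and 15.58 in the *Pparg-cKO* DMSO pools, and whether it lies in the deleted part of the gene was not determined, so it does not check the labels. Levels below are log2 of the background-corrected and normalized intensity, always given for the male and then the female pool. They compare pools for a given gene and not genes with each other. A difference of such levels is a log2 fold change, and a change was called where limma's Benjamini-Hochberg adjusted p was under 0.05. Nothing in the sources says how far pools were prepared independently, so p-values measure the spread between these pools only.

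To show the sequence before the start site of genes on which the results below turn, the 250 bases upstream of the annotated start were taken from RefSeq (build GRCm38.p6), printed 5′ to 3′ on the strand of the gene. *Tek* lies at chr4:94739039-94739288 (plus strand), *Kdr* at chr5:75978456-75978705, *Flt1* at chr5:147726012-147726261 and *Efnb2* at chr8:8661243-8661492 (all minus strand). The first rose with purmorphamine, *Kdr* and *Efnb2* were higher in *Pparg-cKO* ureters, and *Flt1* had values in the opposite direction to *Tek* and *Kdr* under purmorphamine. Capitals mark the ETS core GGAA and the SOX core AACAAT on either strand.
Tek: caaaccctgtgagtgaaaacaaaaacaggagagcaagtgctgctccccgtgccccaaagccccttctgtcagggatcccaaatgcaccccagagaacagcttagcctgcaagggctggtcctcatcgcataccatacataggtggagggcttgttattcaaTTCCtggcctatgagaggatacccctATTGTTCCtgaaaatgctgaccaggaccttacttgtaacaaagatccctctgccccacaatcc
Kdr: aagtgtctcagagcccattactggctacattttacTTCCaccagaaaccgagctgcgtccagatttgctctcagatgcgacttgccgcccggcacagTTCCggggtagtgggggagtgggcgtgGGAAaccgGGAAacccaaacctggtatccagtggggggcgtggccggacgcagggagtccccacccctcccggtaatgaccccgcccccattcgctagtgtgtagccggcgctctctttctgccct
Flt1: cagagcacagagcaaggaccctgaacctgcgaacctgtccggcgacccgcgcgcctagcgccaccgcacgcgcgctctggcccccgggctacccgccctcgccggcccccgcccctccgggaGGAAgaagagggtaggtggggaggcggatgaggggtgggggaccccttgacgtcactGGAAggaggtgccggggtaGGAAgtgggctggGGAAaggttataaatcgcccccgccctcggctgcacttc
Efnb2: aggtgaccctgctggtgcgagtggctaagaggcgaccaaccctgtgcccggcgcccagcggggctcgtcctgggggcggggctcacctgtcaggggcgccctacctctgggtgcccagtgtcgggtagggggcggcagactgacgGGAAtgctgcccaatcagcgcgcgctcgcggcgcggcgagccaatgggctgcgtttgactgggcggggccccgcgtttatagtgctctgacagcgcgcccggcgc
The ETS core was found 2 times before *Tek*, where the single SOX match overlaps one of them, 4 times before *Kdr*, 4 times before *Flt1* and 1 time before *Efnb2*. So short a motif is common: GGAA is in 93.4% of the 32851 promoters of the reference and AACAAT in 9.42%, and the median promoter of all genes holds 3 GGAA matches, as does the median of the members. A promoter was listed for 20 of the 38 members, of which 19 held GGAA and 5 held AACAAT. These matches are letters in a window and say nothing of binding.

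The members, taken as a set, differed in level between the groups. The mean log2 level of the 38 genes was 10.52 and 10.04 in the control DMSO pools, 10.71 and 10.60 in the *Pparg-cKO* DMSO pools, 10.62 and 10.55 in the control purmorphamine pools, and 10.99 and 10.91 in the *Pparg-cKO* purmorphamine pools. The last group was the highest and did not overlap any other. For 25 of the 38 members (65.8%) the highest level of all 8 pools lay in a *Pparg-cKO* purmorphamine pool, whereas this held for 23.7% of the 20523 genes tested. In bulk RNA, fewer endothelial cells and less RNA per cell cannot be told apart.

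The female control DMSO pool stood apart for these genes. It had the lowest level of all 8 pools for 24 of the 38 members, compared with 11.0% of all genes tested. In it 34 of the 38 members were lower than in the male control DMSO pool, with a median difference of -0.52 on the log2 scale, while 51.1% of all genes were lower, with a median difference of -0.01. For *Pecam1*, the homophilic adhesion molecule at endothelial junctions, it read 10.21 where the other 7 pools lay between 10.87 and 11.73. For *Cdh5* it read 11.85, where the lowest of the other pools was 12.60. For *Apln*, the apelin peptide, it read 10.93, where the others lay between 11.62 and 12.28. Since this pool enters the comparison of the genotypes with DMSO and that of purmorphamine with DMSO in control ureters, both are given below also by sex and without its array.

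**Figure D1:**
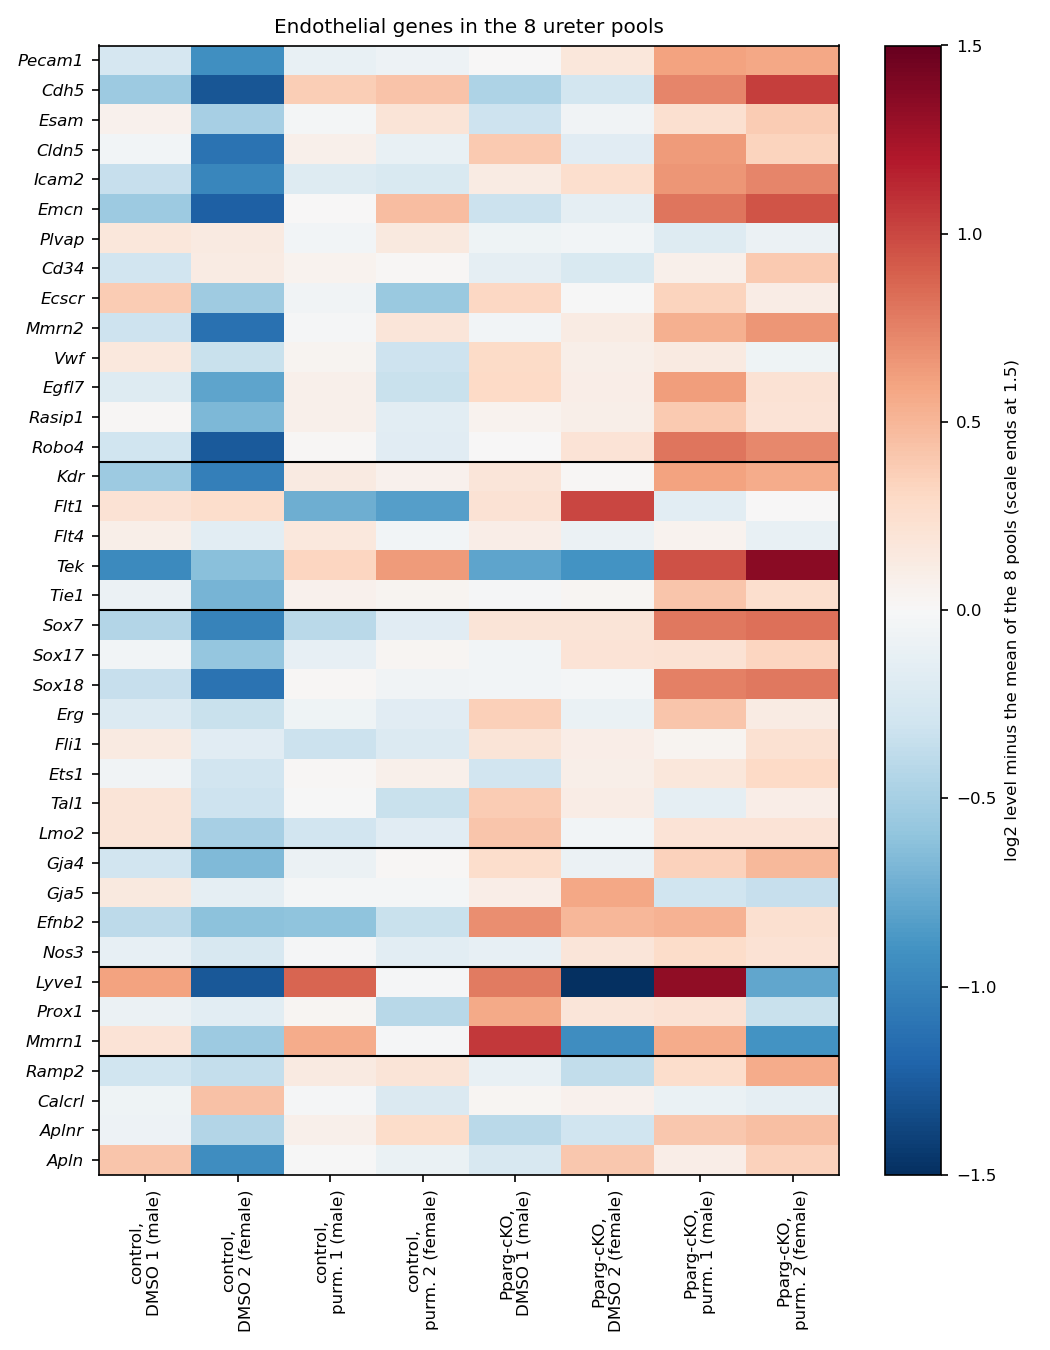
Log2 level of the 38 endothelial genes (rows, grouped by role and separated by lines) in the 8 pools (columns), each as the difference from the mean of the gene over all pools. The female control DMSO column is the lowest for 24 genes, and the 2 *Pparg-cKO* purmorphamine columns hold the highest level of 25 genes.

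With DMSO, most endothelial genes were higher in *Pparg-cKO* than in control ureters, although few passed the test. The median log2 fold change of the members was 0.35, beside 0.00 over all 20523 genes, and 32 of the 38 had a positive estimate. Of the 38, 2 were called (5.26%), both higher, beside 3.68% of all genes in either direction, so the share of calls was near the background. The unadjusted p was under 0.05 for 11 members, all higher (28.9%), beside 8.02% of all genes that were higher at this p. The levels of 18 members lay above both control pools in both *Pparg-cKO* pools (47.4%), beside 21% of all genes. The median was 0.16 between the male pools and 0.55 between the female pools, and it was 0.12 without the array of the female control pools and 0.67 without that of the male control pools. In the male pools 30 members were higher in *Pparg-cKO*, and 31 in the female pools.

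The called genes were *Efnb2* and *Kdr*. *Efnb2* encodes the transmembrane ligand ephrin B2, which marks arterial endothelium but is also made by epithelial and smooth muscle cells. Its log2 levels were 13.04 and 12.81 in the control and 14.13 and 13.93 in the *Pparg-cKO* DMSO pools (probe at chr8:8618177-8618236 of mm9). The groups did not overlap, and the difference was 1.10 ± 0.16 (SE, n = 2 pools per group), or 2.15-fold, with an adjusted p of 0.0156. Its dimmer second probe gave a difference of 1.35.

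*Kdr*, the main signaling receptor for VEGF, had log2 levels of 10.96 and 10.48 in the control and 11.68 and 11.51 in the *Pparg-cKO* DMSO pools (probe at chr5:76329309-76329368 of mm9). Both *Pparg-cKO* pools lay above both control pools. The difference was 0.88 ± 0.16 (SE, n = 2), with an adjusted p of 0.0375. The second probe for *Kdr* disagreed in size, with a difference of 0.16, and the call was lost when the probes were averaged (0.52, adjusted p = 0.0782), with processed signals (0.0720) and without the filter on dim probes (0.0569). Neither gene was called when any single array was left out, while without the male control array *Sox7*, *Sox18* and *Robo4* were called instead.

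Several further genes were higher in *Pparg-cKO* pools but missed the threshold. *Sox7*, a SOXF factor, read 10.91 and 10.35 in control and 11.54 and 11.54 in *Pparg-cKO* pools, a difference of 0.91 ± 0.19 (SE, n = 2; adjusted p = 0.0538). *Icam2*, an adhesion molecule at endothelial junctions, read 11.85 and 11.23 against 12.32 and 12.45 (0.84 ± 0.19; adjusted p = 0.0738). For *Robo4*, a receptor that stabilizes vessels, the values were 10.77 and 9.81 against 11.07 and 11.27 (0.88 ± 0.29; adjusted p = 0.192). In these 3 genes both mutant pools were above both control pools, and the female pair differed more than the male pair. By role, the medians were 0.60 for the 14 genes of the cell surface, junctions and vessel wall, 0.37 for the 5 VEGF and angiopoietin receptors, 0.37 for the 8 transcription regulators (all 8 positive), 0.45 for the 4 arterial genes, 0.24 for the 3 lymphatic genes and 0.00 for the 4 genes of adrenomedullin and apelin signaling. *Tek*, at -0.06, and *Plvap*, a component of endothelial fenestrae, at -0.20, were among the 6 with a negative estimate, but the second probe for *Plvap* gave 0.27.

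With purmorphamine the same comparison rests on other pools, but on the same arrays. Since no array carried both genotypes, an effect of an array on both its pools would enter both genotype comparisons. The comparison with purmorphamine is therefore no independent repeat of that with DMSO. Its values were more even between the sexes. The median of the members was 0.36, beside 0.00 over all genes, with 0.36 between the male and 0.41 between the female pools, and 32 of the 38 estimates were positive. Both *Pparg-cKO* pools lay above both control pools for 29 members (76.3%), beside 23.1% of all genes. Only 2 members were called (5.26%), both higher, beside 2.88% of all genes, and 13 had an unadjusted p under 0.05, all higher (34.2%), beside 6.69% of all genes in that direction. Leaving out any single array gave medians between 0.34 and 0.40 and no called member.

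*Sox7* had log2 levels of 10.95 and 11.18 in the control and 12.14 and 12.18 in the *Pparg-cKO* purmorphamine pools (probe at chr14:64569419-64569478 of mm9). The gap between the groups exceeded the spread within either, and the difference was 1.10 ± 0.19 (SE, n = 2), or 2.14-fold, with an adjusted p of 0.0374. *Efnb2* read 12.83 and 13.10 against 13.95 and 13.67, a difference of 0.85 ± 0.16 (SE, n = 2; adjusted p = 0.0445). Its groups again did not overlap, and its second probe gave 1.62. Neither call held with processed signals (adjusted p = 0.0937 for *Sox7* and 0.0838 for *Efnb2*) or without the filter on dim probes (0.0600 and 0.0669). With replicate number as a term in the limma fit, the call of *Efnb2* was lost (adjusted p = 0.0582) and that of *Sox7* held (0.0478). *Icam2* read 12.01 and 11.97 against 12.86 and 12.93 (0.91 ± 0.19; adjusted p = 0.0685), and *Sox18*, which acts in vascular and lymphatic endothelium, read 11.64 and 11.57 against 12.38 and 12.41 (0.79 ± 0.22; adjusted p = 0.148). *Pecam1* read 11.00 and 11.04 against 11.73 and 11.70 (0.69 ± 0.20; adjusted p = 0.158). In these 3 genes the pools of a group lay close together, and the p-values take the spread from all 4 groups, the female control DMSO pool included. *Sox17*, the third SOXF factor, differed by 0.32 ± 0.19 (adjusted p = 0.514), and *Erg*, an ETS factor that maintains endothelial identity, by 0.38 ± 0.17 (adjusted p = 0.358).

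**Figure D2:**
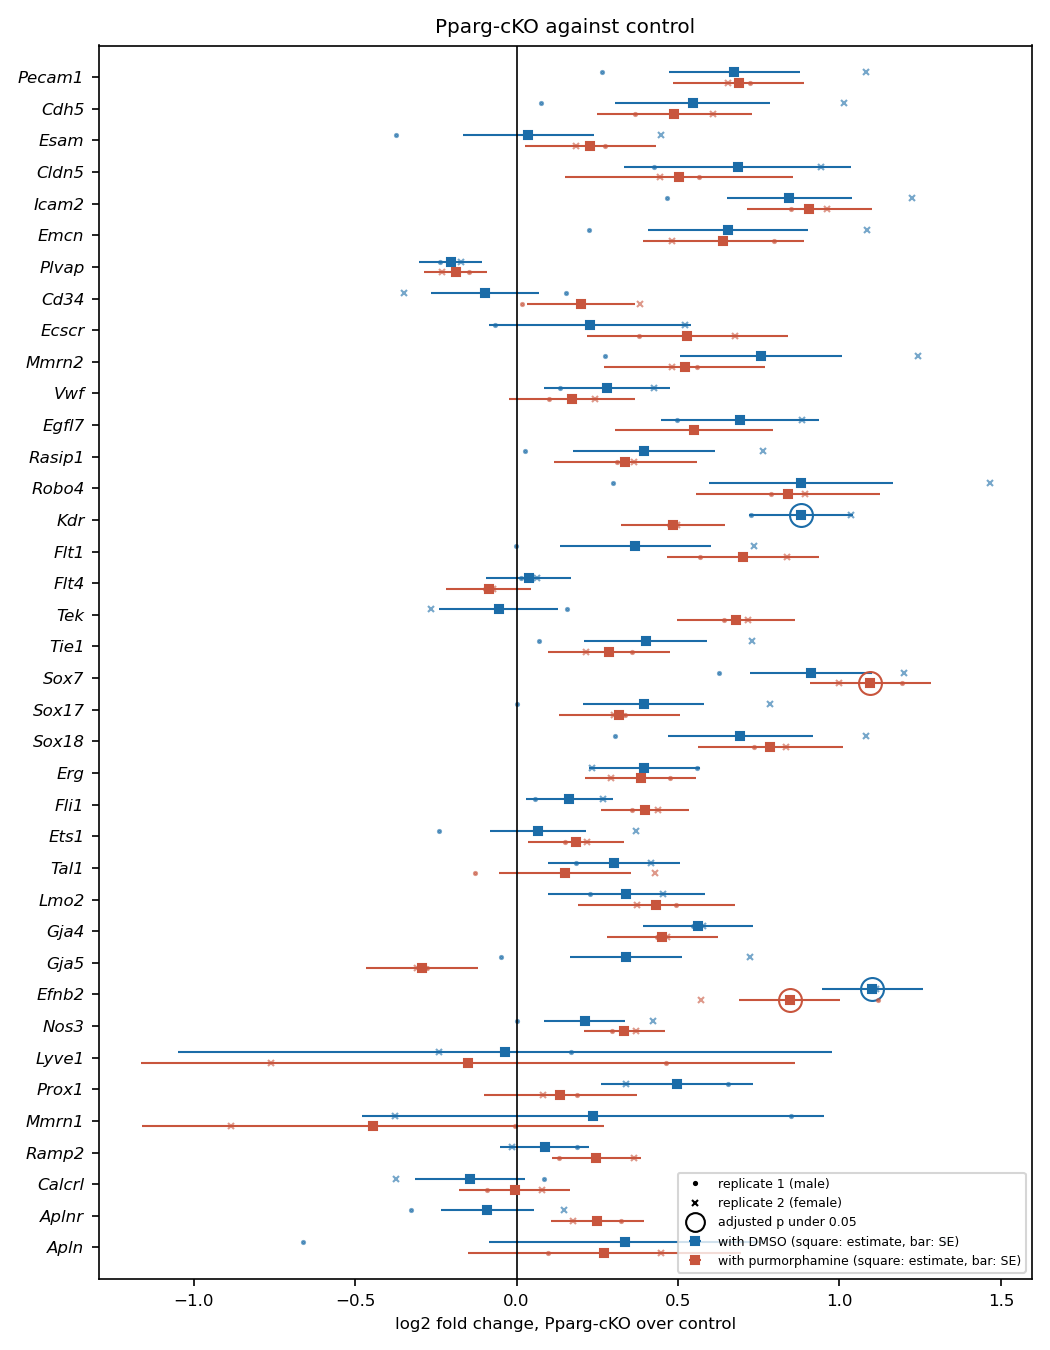
Log2 fold change of *Pparg-cKO* over control for the 38 endothelial genes (rows) with DMSO (blue) and with purmorphamine (red). Squares are limma's estimates with the SE as bars, dots and crosses are the differences between the male and between the female pools, and circles mark the called genes (*Efnb2* with both, *Kdr* with DMSO, *Sox7* with purmorphamine).

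The rule in the methods of the study, which asks both replicates for a 1.5-fold or larger change with the same sign and an intensity above 100, carries no test of error and took in more members. With DMSO it was met by 4 members (10.5%), beside 2.84% of all gene names, and these were *Kdr*, *Sox7*, *Gja4* and *Efnb2*. With purmorphamine it was met by 9 (23.7%), beside 3.21%, and these were *Pecam1*, *Icam2*, *Robo4*, *Flt1*, *Tek*, *Sox7*, *Sox17*, *Sox18* and *Efnb2*. All were higher in *Pparg-cKO* ureters. The rule was applied to processed signals and is met if any probe of a gene meets it. All 38 members passed the filter on dim probes, but only 20523 of the 29924 gene names did. The shares over all gene names, here and for purmorphamine below, are therefore not matched to the members in brightness, and shares over the tested genes were not computed. *Sox17* and *Efnb2* with purmorphamine met it only by their second probes, with log2 fold changes of 0.61 and 0.72 for *Sox17* (male and female) and of 2.24 and 1.66 for *Efnb2*. *Gja4*, the arterial connexin 37, read 9.38 and 9.0 in the control and 9.92 and 9.58 in the *Pparg-cKO* DMSO pools, and 9.57 and 9.68 against 10.00 and 10.15 with purmorphamine. Its mutant pools were above its control pools under both treatments, by 0.56 ± 0.17 (adjusted p = 0.165) and 0.45 ± 0.17 (adjusted p = 0.269).

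Purmorphamine raised *Tek* in both genotypes, and *Cdh5* was called as well in *Pparg-cKO* ureters. *Tek* encodes TIE2, the angiopoietin receptor (probe at chr4:94540624-94540683 of mm9). Its log2 levels went from 9.19 and 9.52 with DMSO to 10.46 and 10.78 with purmorphamine in control ureters, and from 9.35 and 9.25 to 11.10 and 11.49 in *Pparg-cKO* ureters. Every purmorphamine pool was above every DMSO pool. The change was 1.26 ± 0.15 (SE, n = 2 arrays), or 2.40-fold, in control (adjusted p = 0.0444) and 2.00 ± 0.15 in *Pparg-cKO* (adjusted p = 0.0161). The male control array gave 1.27 and the female one 1.26, and the change was as large in the male array alone. The call in control was lost without the male or without the female control array (adjusted p = 0.152 and 0.120), with processed signals (0.154), without the filter on dim probes (0.0852) and with the value table of the series (0.15). That in *Pparg-cKO* was lost with processed signals (0.0967) and with the value table (0.0977). With replicate number as a term in the limma fit, the call of *Tek* in control was lost (adjusted p = 0.0556) and that in *Pparg-cKO* held (0.0281).

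*Cdh5*, the adherens junction cadherin that defines endothelium, rose in *Pparg-cKO* ureters from 12.68 and 12.86 to 13.88 and 14.17, by 1.25 ± 0.21 (SE, n = 2; adjusted p = 0.0457). In control ureters it read 12.60 and 11.85 with DMSO and 13.51 and 13.56 with purmorphamine, a change of 1.31 ± 0.21 (adjusted p = 0.0690). The purmorphamine pools were above the DMSO pools in both genotypes. The call in *Pparg-cKO* was lost without the male or the female *Pparg-cKO* array (adjusted p = 0.0879 and 0.233), with processed signals (0.149), without the filter (0.0909) and with the value table (0.153). *Emcn*, a sialomucin of venous and capillary endothelium, read 10.37 and 9.69 against 10.92 and 11.37 in control (1.11 ± 0.27; adjusted p = 0.131) and 10.59 and 10.77 against 11.72 and 11.85 in *Pparg-cKO* ureters (1.10 ± 0.27; adjusted p = 0.0987). *Sox18* had changes of 0.71 ± 0.18 (adjusted p = 0.141) and 0.80 ± 0.18 (adjusted p = 0.0846).

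Over the whole group, the median change with purmorphamine was 0.29 in control and 0.28 in *Pparg-cKO* ureters, beside 0.02 and 0.00 over all genes. In control, 28 of the 38 estimates were positive, 1 member was called (2.63%) beside 1.31% of all genes, and the purmorphamine pools lay above both DMSO pools for 16 (42.1%) beside 24.8%. In *Pparg-cKO* ureters, 27 were positive, 2 were called (5.26%) beside 4.71%, and 20 lay above (52.6%) beside 26.4%. At an unadjusted p under 0.05, 14 members were higher (36.8%) and 1 lower (2.63%) in control, beside 9.75% and 9.79% of all genes. In *Pparg-cKO* ureters 13 were higher (34.2%) and 3 lower (7.89%), beside 9.8% and 12.3%. The male control array had a median of 0.11 and the female one of 0.54. The male *Pparg-cKO* array gave 0.33 and the female one 0.23. The rule of the methods took in 5 members in control (13.2%), beside 3.3% of all gene names, namely *Cdh5*, *Emcn*, *Kdr*, *Tek* and, downwards, *Flt1*. In *Pparg-cKO* ureters it took in 7 (18.4%), beside 4.46%, namely *Cdh5*, *Emcn*, *Tek*, *Sox7*, *Sox18*, *Lyve1* and, downwards, *Flt1*, the last only by its second probe.

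Among the receptors for VEGF and angiopoietins the direction was mixed. *Flt1*, the VEGF receptor that acts as a decoy in its soluble form, read 9.38 and 9.43 with DMSO and 8.43 and 8.34 with purmorphamine in control ureters, and 9.38 and 10.17 against 9.0 and 9.17 in *Pparg-cKO* ureters. The purmorphamine pools were the lower ones in both genotypes, by -1.02 ± 0.17 (adjusted p = 0.0769) and -0.69 ± 0.17 (adjusted p = 0.0992), short of the threshold. The second probe of *Flt1* that was above background gave -0.82 and -0.85. *Kdr* went from 10.96 and 10.48 to 11.63 and 11.56 in control (0.88 ± 0.14; adjusted p = 0.0678) and from 11.68 and 11.51 to 12.11 and 12.06 in *Pparg-cKO* ureters (0.49 ± 0.14; adjusted p = 0.125), while its second probe gave 0.12 and 0.13. *Tie1*, an orphan receptor that modulates TEK, had changes of 0.44 ± 0.17 (adjusted p = 0.250) and 0.33 ± 0.17 (adjusted p = 0.348). *Flt4* read between 6.31 and 6.61 in all 8 pools, near the background.

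**Figure D3:**
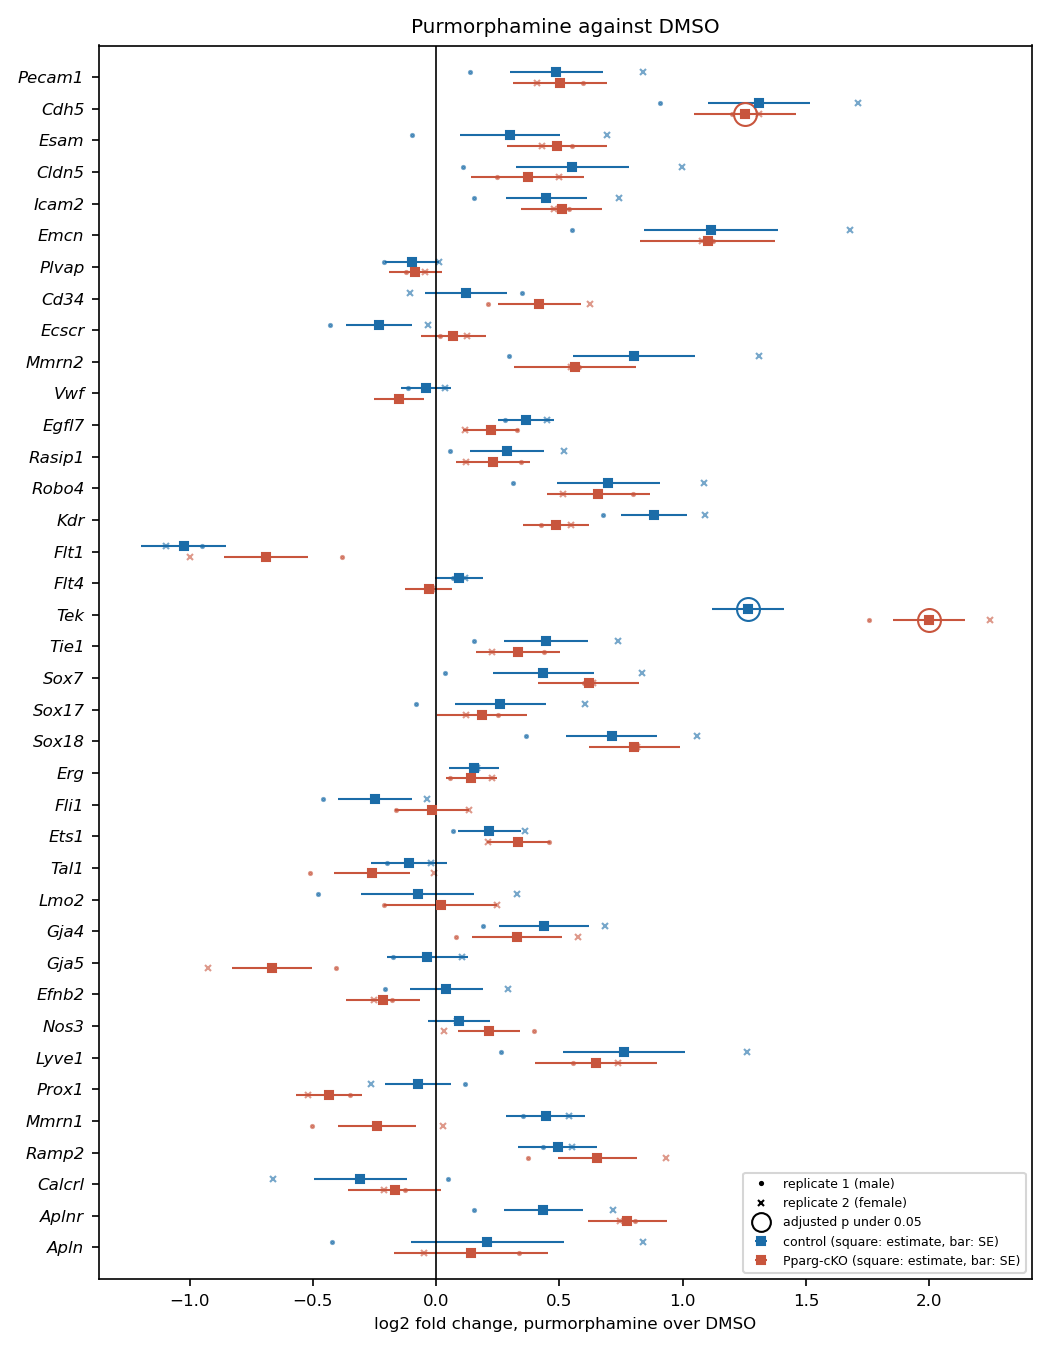
Log2 fold change of purmorphamine over DMSO for the 38 endothelial genes (rows) in control (blue) and *Pparg-cKO* ureters (red). Squares are limma's estimates with the SE as bars, dots and crosses are the male and the female array, and circles mark the called changes (*Tek* in both genotypes and *Cdh5* in *Pparg-cKO*). *Flt1* has the lowest estimate in both genotypes.

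The arterial genes were mixed. *Efnb2* changed with purmorphamine by 0.04 ± 0.15 in control (adjusted p = 0.927) and by -0.22 ± 0.15 in *Pparg-cKO* ureters (adjusted p = 0.497), and its second probe gave -0.33 and -0.06. *Gja5*, the arterial connexin 40, read 8.54 and 8.25 against 8.36 and 8.35 in control (-0.04 ± 0.16; adjusted p = 0.944) and 8.49 and 8.97 against 8.09 and 8.05 in *Pparg-cKO* ureters (-0.67 ± 0.16; adjusted p = 0.0977). In the latter the purmorphamine pools were below the DMSO pools, but its second probe above background gave 0.05. *Nos3*, the endothelial nitric oxide synthase, had changes of 0.09 ± 0.13 and 0.21 ± 0.13 (adjusted p = 0.770 and 0.417), with -0.04 and 0.13 at its second probe. Of the transcription regulators not yet given, *Fli1*, *Tal1* and *Lmo2*, which are shared with blood cells, had changes between -0.26 and 0.02, and *Erg*, *Ets1* and *Sox17* between 0.14 and 0.33, while the second probe for *Ets1* gave -0.15 in control.

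No difference between the purmorphamine effects of the genotypes was called by limma for any of the 38 members or of the 20523 genes (0% of both), and 3 members had an unadjusted p under 0.05 (7.89%), 1 upwards and 2 downwards, beside 3.3% of all genes. The member with the highest difference was *Tek*, whose change was larger in *Pparg-cKO* than in control ureters by 0.74 ± 0.21 (SE), by 0.49 in the male and 0.98 in the female arrays. The lowest was *Mmrn1* with -0.68 ± 0.23. The median over the members was -0.03, with 0.29 between the male and -0.25 between the female arrays. A p that misses the threshold does not show that the effects were alike. The 4 comparisons of genotype and treatment share pools, so that each pool enters 2 of them.

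In the 3 lymphatic genes the male pool lay above the female pool in every group. *Lyve1*, a hyaluronan receptor of lymphatic endothelium that some tissue macrophages also make, read 11.59 in the male and 9.71 in the female control DMSO pool, and 11.76 and 9.47 in the *Pparg-cKO* DMSO pools. With purmorphamine it read 11.85 and 10.97 in control and 12.32 and 10.21 in *Pparg-cKO* ureters. The male pool was the higher one in all 4 groups, by 0.88 to 2.29. *Mmrn1*, a secreted multimerin of lymphatic endothelium, read 9.68 and 8.92, 10.53 and 8.54, 10.03 and 9.46, and 10.03 and 8.57 in the same order of groups, again with each male pool above its female counterpart. *Prox1*, the master regulator of lymphatic identity, read 6.89 and 6.82, 7.55 and 7.15, 7.01 and 6.55, and 7.20 and 6.64. Dyes were exchanged between DMSO and purmorphamine pools of a given sex, so the male pools carried both dyes among these groups. Sex and replicate number cannot be told apart, and the cause of the difference was not tested. In a fit with replicate number as a term, chosen after these values were seen, the female pools differed from the male ones by -1.79 ± 0.22 for *Lyve1* (adjusted p = 0.231), -1.19 ± 0.24 for *Mmrn1* (adjusted p = 0.264) and -0.37 ± 0.09 for *Prox1* (adjusted p = 0.336), so none was called. Over all members, 10 of 38 were lower in the female pool of every group, beside 6.56% of all genes, and 0 were higher, beside 7.01%. Beside the 3 lymphatic genes these were *Egfl7*, *Cldn5*, *Ecscr*, *Kdr*, *Vwf*, *Erg* and *Flt4*, so the pattern was not particular to lymphatic genes. The leukocyte genes *Lyz2*, *Mrc1*, *Cd14* and *Aif1* also had it, while *Tyrobp* and *Csf1r* did not. *Foxc2*, which acts in lymphatic valves, was higher in the female control DMSO pool, by 0.05. With the pools of a group this far apart, the genotype difference of *Lyve1* had an SE of 1.01 and could not be resolved. Within the arrays, which pair pools of a given sex, purmorphamine changed *Lyve1* by 0.76 ± 0.25 in control (adjusted p = 0.196) and 0.65 ± 0.25 in *Pparg-cKO* ureters (adjusted p = 0.221).

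The 4 genes of adrenomedullin and apelin signaling had median purmorphamine changes of 0.32 in control and 0.40 in *Pparg-cKO* ureters, and none was called. *Ramp2*, which with *Calcrl* forms the adrenomedullin receptor, read 12.90 and 12.84 against 13.33 and 13.39 with purmorphamine in control (0.49 ± 0.16; adjusted p = 0.196) and 13.08 and 12.83 against 13.46 and 13.76 in *Pparg-cKO* ureters (0.65 ± 0.16; adjusted p = 0.0975). Both purmorphamine groups lay above their DMSO groups. *Calcrl* had changes of -0.31 ± 0.19 (adjusted p = 0.460) and -0.17 ± 0.19 (adjusted p = 0.711). The apelin receptor *Aplnr* read 7.02 and 6.65 against 7.17 and 7.37 in control (0.44 ± 0.16; adjusted p = 0.235) and 6.69 and 6.80 against 7.50 and 7.55 in *Pparg-cKO* ureters (0.78 ± 0.16; adjusted p = 0.0679). Its ligand *Apln* had changes of 0.21 ± 0.31 (adjusted p = 0.793) and 0.14 ± 0.31 (adjusted p = 0.870).

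Of the ligands for these receptors, the angiopoietin gene *Angpt4* had the largest change. It read 8.83 and 8.87 with DMSO and 10.63 and 10.82 with purmorphamine in control ureters, and 9.06 and 8.93 against 11.72 and 11.45 in *Pparg-cKO* ureters. The purmorphamine pools were far above the DMSO pools, by 1.87 ± 0.11 (SE, n = 2; adjusted p = 0.0178) and 2.59 ± 0.11 (adjusted p = 0.0116). With processed signals and with the value table, 0 genes of the array were called for purmorphamine against DMSO in either genotype. None of the calls given here for purmorphamine against DMSO, those of *Angpt4* and *Ptch1* included, therefore held under these 2 alternatives. *Angpt1*, the main activating ligand of TEK, had changes of 0.42 ± 0.10 (adjusted p = 0.122) and 0.40 ± 0.10 (adjusted p = 0.0987), and *Vegfa* had changes of -0.25 ± 0.18 (adjusted p = 0.537) and -0.41 ± 0.18 (adjusted p = 0.271). Among 22 vascular growth factors, inhibitors and their co-receptors, 1 was called with purmorphamine in control and 6 in *Pparg-cKO* ureters, all higher. Of all genes, 1.31% and 4.71% were called in these comparisons, in either direction. The largest of the 6 were *Angpt4*, the chemokine receptor *Ackr3* (1.23), the VEGFR3 ligand *Vegfd* (0.93, listed as *Figf*) and the VEGF co-receptor *Nrp1* (0.86). The others were *Thbs1*, which went from 13.40 and 13.43 to 14.25 and 14.28, and *Thbs2*, which went from 13.20 and 13.41 to 13.99 and 14.05. Between the genotypes the anti-angiogenic matrix protein *Thbs1* (-0.84, adjusted p = 0.00689) and *Vegfb* (-0.55, adjusted p = 0.0319) were lower in *Pparg-cKO* with DMSO. With purmorphamine *Vegfb* was lower (-0.62, adjusted p = 0.0278) and *Angpt4* higher (0.86, adjusted p = 0.0224). *Thbs1* was not called there, at 14.23 and 14.06 in the control and 14.25 and 14.28 in the *Pparg-cKO* pools.

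**Figure D4:**
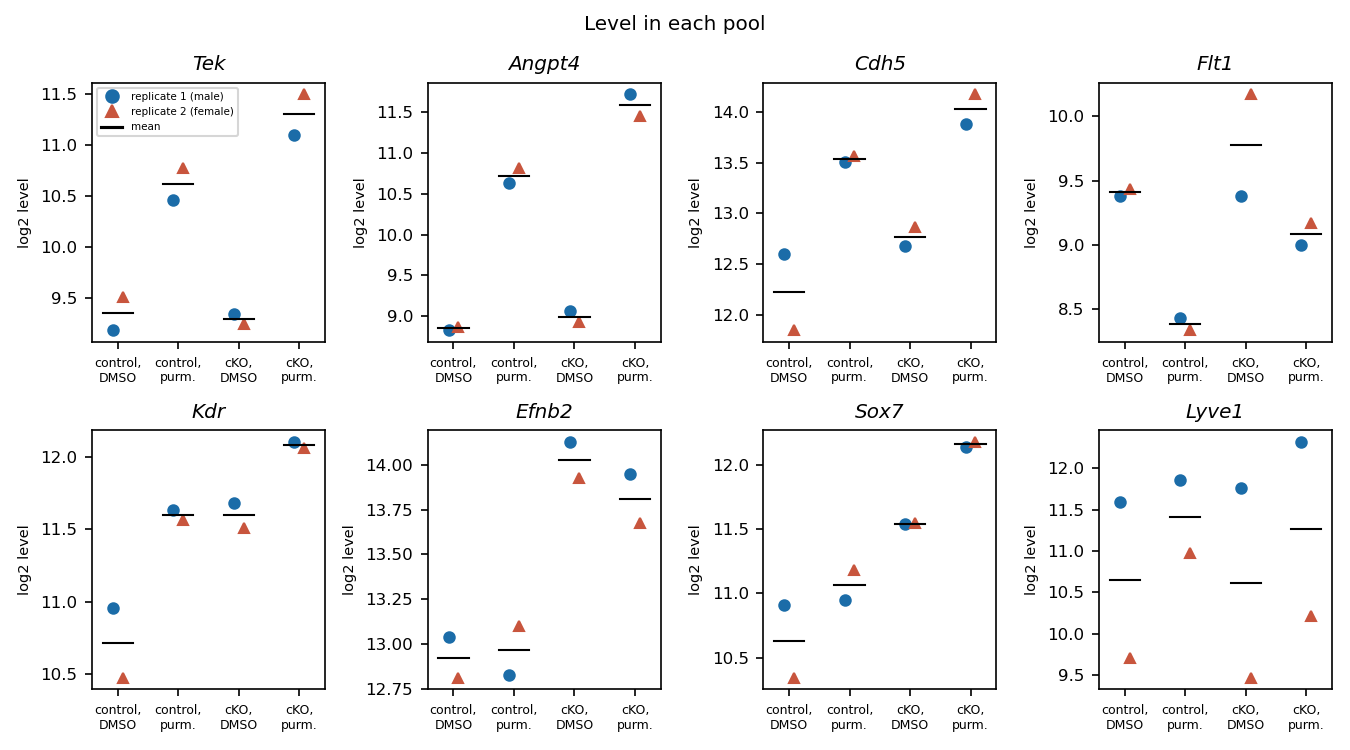
Log2 level of 7 endothelial genes and of *Angpt4*, a ligand of the receptor TEK, in each pool by group (circle, male; triangle, female; line, mean). *Tek*, *Angpt4* and *Cdh5* are higher in all purmorphamine than in all DMSO pools, and *Efnb2* is higher in all *Pparg-cKO* than in all control pools. *Lyve1* is higher in the male (replicate 1) than in the female (replicate 2) pool of each group. Each panel has its own axis, which does not start at 0.

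A further 36 tested genes of endothelium, from a list that shares no gene with the 38, had medians of 0.19 and 0.24 between the genotypes with DMSO and with purmorphamine, and of 0.19 and 0.18 for purmorphamine in control and in *Pparg-cKO*. Of the 36 estimates between the genotypes, 10 were negative with DMSO and 11 with purmorphamine. With DMSO 3 were called, all higher in *Pparg-cKO*, beside 3.68% of all genes called in either direction. *Bmx*, a tyrosine kinase of arterial endothelium and of epithelia, read 7.52 and 7.46 in the control and 9.62 and 9.33 in the *Pparg-cKO* DMSO pools, a difference of 1.99 ± 0.14 (SE, n = 2; adjusted p = 0.00169), and with purmorphamine 7.59 and 7.72 against 8.98 and 8.72 (1.20 ± 0.14; adjusted p = 0.0128). Its mutant pools were far above its control pools under both treatments. *Podxl*, a sialomucin, differed by 1.41 ± 0.16 with DMSO (adjusted p = 0.00824) and by 0.19 ± 0.16 with purmorphamine (adjusted p = 0.683). *Bmx* and *Podxl* have 2 probes each on the array, and only the brightest tested probe of each is given here. *Afap1l1*, an actin-associated protein, differed by 1.25 ± 0.19 (adjusted p = 0.0182) and 1.10 ± 0.19 (adjusted p = 0.0357). *Sele*, of the same list, was lower in *Pparg-cKO* pools under both treatments but was not called. It read 10.63 and 10.96 in the control and 9.79 and 8.97 in the *Pparg-cKO* DMSO pools. With purmorphamine it read 11.01 and 11.40 against 9.25 and 9.84. Purmorphamine in *Pparg-cKO* ureters raised *Nr2f2*, a regulator of venous identity that mesenchyme also makes, by 0.87 ± 0.10 (adjusted p = 0.0249) and *Foxc2*, a regulator of lymphatic valve development, by 0.76 ± 0.11 (adjusted p = 0.0367), and lowered *Bmx*, by -0.62 ± 0.10 (adjusted p = 0.0474), and *Podxl*, by -1.01 ± 0.15 (adjusted p = 0.0402).

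Markers of other cell types moved beside these genes, and their part in the results was not tested. Of 17 leukocyte genes, 15 had negative estimates with purmorphamine in both genotypes, with medians of -0.62 and -0.56. Called lower were 3 in control and 5 in *Pparg-cKO*, beside 1.31% and 4.71% of all genes called in either direction. The mean log2 level of this list lay between 12.64 and 13.00 in the control and between 12.78 and 12.86 in the *Pparg-cKO* DMSO pools, and between 12.01 and 12.39 and between 12.23 and 12.26 in those with purmorphamine. The macrophage receptor *Mrc1* fell by 1.78 and by 1.57 on the log2 scale (adjusted p = 0.0225 and 0.0166). Between the genotypes the leukocyte medians were -0.01 and 0.06. Of 12 mural cell genes, which mark the pericytes and muscle cells around vessels, *Cspg4* was lower in *Pparg-cKO* with DMSO (-0.78, adjusted p = 0.0166) and *Pdgfrb* rose with purmorphamine in *Pparg-cKO* (0.71, adjusted p = 0.0394). The mean level of that list lay between 11.59 and 11.63 and between 11.40 and 11.47 in the control and the *Pparg-cKO* DMSO pools, and between 11.68 and 11.83 and between 11.79 and 11.85 in those with purmorphamine. None of the 6 red blood cell genes tested was called, and their mean level lay between 6.73 and 7.51 over all pools. The epithelial marker *Epcam* was higher in *Pparg-cKO* by 0.61 with DMSO (adjusted p = 0.0479) and by 0.76 with purmorphamine (adjusted p = 0.0297), and fell with purmorphamine by 0.96 in control and by 0.81 in *Pparg-cKO* (adjusted p = 0.0473 and 0.0376). It belongs to a list of 15 urothelial and ureter genes, of which others went the other way. *Upk1b* was called lower in *Pparg-cKO* with DMSO, and *Trp63* with purmorphamine. Against DMSO, purmorphamine raised *Upk1b* in both genotypes and *Upk2* in *Pparg-cKO*, all called. The median change of the list with purmorphamine was 0.47 in control and 0.67 in *Pparg-cKO*. None of the defining markers *Pecam1*, *Ptprc*, *Pdgfrb* or *Epcam* was at background in any group.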

How the data were processed

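Per the file headers, Agilent Feature Extraction gave for each spot and dye a mean intensity and a local background intensity, not normalized, and a processed intensity with background subtracted and dyes normalized. The version in the submitters' processing notes is 10.7.3.1. The deposited log10 ratio (red over green) was used only to check the dye direction. The deposited score of the series table is a fold change, purmorphamine over DMSO with a sign, of unstated normalization. Probe coordinates are mm9.

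Mean intensities were corrected with normexp (offset 50) and normalized by loess within arrays, outlier spots left out, with limma 3.58.1 in R 4.3.3. The 4 spots per probe were averaged. For the genotypes, Aquantile normalization and a separate-channel fit were used (correlation of the channels of an array 0.0398), and for purmorphamine the log2 ratio within arrays, with all groups in each fit. A probe was kept if each pool of 1 group or more had it well above background. The 27466 kept gave 20523 genes, each by its brightest probe, with p adjusted by Benjamini-Hochberg over all. The scripts were tested on simulated data. For the rule of the methods, processed signals were scaled to a 75th percentile of 1500 and floored at 15.

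The members and gene lists were chosen with earlier results of these data known. Named were the members that were called or met the rule of the methods, a fixed set of vascular markers, and called genes of the other lists, at most 4 per list by size. Other members are named with values where a role is described. The 2 pools per group limit the precision.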

Additional observations from a re-analysis of the deposited data

Results flagged for a closer look

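Among the 38 genes, 2 had purmorphamine ratios of opposite sign on both arrays of the genotypes. For *Ecscr*, an endothelial cell surface protein, the ratios were -0.43 and -0.03 in control and 0.02 and 0.12 in *Pparg-cKO* ureters, a difference of 0.30. For *Flt4* they were 0.07 and 0.12 in control and -0.04 and -0.02 in *Pparg-cKO*, a difference of -0.12, and its genotype differences with DMSO and with purmorphamine were likewise opposite (-0.12). The test of the difference of the purmorphamine effects called neither by limma (adjusted p = 1.00 for both), and *Flt4* was above background in 4 of 8 pools.

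Between the sexes, *Lmo2*, a transcription cofactor of blood and endothelium, had ratios of -0.48 and -0.21 in the male arrays and 0.33 and 0.25 in the female arrays, a difference of 0.63. For *Lyve1* the difference between the genotypes was 0.17 and 0.46 in the male pools and -0.24 and -0.76 in the female pools, a difference of -0.82. These differences between the sexes were not tested, and sex, dye orientation and replicate cannot be told apart.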

How the results depend on the processing

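The counts of called members were small and moved with the processing, while the medians kept their sign in all 4 comparisons under every alternative run. With DMSO the 2 called members became 1 with processed signals, without the filter on dim probes, with the mean of all tested probes and with a dye term added to the replicate block. With purmorphamine the 2 became 0 with processed signals (where the median was 0.47), without the filter and with the dye term. For purmorphamine in control the 1 became 0 with processed signals, without the filter and with the value table of the series, and in *Pparg-cKO* the 2 became 0, 1 and 0. The rule of the methods gave 4, 9, 5 and 7. Replicate number stands for sex and dye orientation in every group. The main fits held no term for it and took the male and female pools as replicates. Pools of the same number share no animals across genotypes. In a fit with the replicate block the members called were 3, 1, 0 and 2, in the order above, with *Egfl7* gained for DMSO, *Efnb2* lost with purmorphamine (adjusted p = 0.0582 by limma) and *Tek* lost in control (0.0556). With the dye term added, *Efnb2* was lost with DMSO (0.0531) and, like *Sox7*, with purmorphamine (0.100 and 0.0762). The correlation of the deviations of same-numbered pools was -0.15 between the genotypes with DMSO and 0.47 with purmorphamine. The crossed pairing for DMSO, added after seeing the data, called 1 member and 717 genes.

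Leaving out each array in turn gave 0 to 3 called members with DMSO, 0 with purmorphamine, 0 to 3 for purmorphamine in control and 1 to 6 in *Pparg-cKO*. With DMSO 3 were called without the male control array (*Sox7*, *Sox18* and *Robo4*) and 0 without any other. For purmorphamine in control 3 were called without either *Pparg-cKO* array (*Tek*, *Cdh5* and *Flt1*) and 0 without either control array. In *Pparg-cKO* 6 were called without either control array (*Tek*, *Cdh5*, *Sox7*, *Sox18*, *Emcn* and *Aplnr*) and 1, *Tek*, without either *Pparg-cKO* array. The medians ranged from 0.12 to 0.67, from 0.34 to 0.40, from 0.11 to 0.54 and from 0.23 to 0.33. The lowest DMSO and control medians came without the female control array and the highest without the male one. In these fits and that with the dye term the channel correlation of the fit on all arrays was used, and the lone pool left in a group was assumed to vary like the others.

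Counts over all genes moved as well. With processed signals the 755, 591, 269 and 967 calls became 470, 217, 0 and 0. Without the filter the last 2 became 13 and 310, with the replicate block the third became 151, with the dye term the first 2 became 479 and 229, and with the value table the last 2 became 0 and 0. Leaving out each array gave 33 to 428, 16 to 326, 0 to 498 and 94 to 1006 calls, and 0 to 40 for the difference of the purmorphamine effects. The cause of these changes was not tested. Signal above background limits *Flt4* and *Erg*.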
